A study of Arabidopsis thaliana with 12 samples.

Results

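Aux/IAA genes encode short-lived nuclear repressors of the auxin response, and 8 of them could be followed in whole Arabidopsis seedlings given auxin for 15 min or 3 h. The 8 genes are IAA15, IAA18, IAA20, IAA29, IAA30, IAA31, IAA33 and IAA34. They were taken by name, as the Aux/IAA symbols whose probe set the platform annotation paired with a single gene. They make up 8 of the 29 loci listed for the family and 8 of the 17504 probe sets with a gene name that were tested, out of 28583 on the array. The other family loci were not analysed here. The choice of genes used no measured value, but it was made with earlier results of these data known.

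An Aux/IAA protein binds an auxin response factor on DNA and recruits a co-repressor of the TOPLESS group, which keeps auxin target genes off. Auxin joins the degron of the repressor, a short stretch known as domain II, to an F-box receptor of the TIR1/AFB group, after which the repressor is ubiquitinated and destroyed. Many Aux/IAA genes are themselves switched on by auxin, so that the response feeds back on its own repressors. Non-canonical members lack this degron or carry an altered form of it and are degraded slowly or not at all through that route. Among the 8 genes, IAA15, IAA18 and IAA29 encode proteins with a degron, while IAA20, IAA30, IAA31, IAA33 and IAA34 are non-canonical. This division rests on general knowledge of the family, since protein and promoter sequences were not analysed here.

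Wild-type seedlings of the Col-0 accession, 7 days old per the labels, were shaken in liquid medium and received 0.1% DMSO as mock treatment, or auxin as 1 µM IAA (indole-3-acetic acid) dissolved in DMSO. Mock and IAA seedlings were taken at 15 min and at 3 h, and each of these 4 groups had 3 arrays, numbered 1 to 3, from an experiment done on 3 different days. The labels' treatment protocol lists 30 min, 1 h and 3 h, so the early time is uncertain to the extent that it conflicts with the sample titles, which were used. The 12 arrays gave RMA log2 levels, on which a difference of 1 is a doubling. All RNA came from entire seedlings, so more cells of a type and more RNA per cell cannot be told apart in any of the values below.

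The arrays numbered 1 stood apart from the rest. The medians of the 12 arrays lay between 4.72 and 4.79, but the interquartile range was 3.89 to 3.92 on arrays 2 and 3 and 2.88 to 3.79 on the arrays numbered 1, lowest in IAA 3 h array 1. On that array the 25th percentile was 3.35, against 2.70 to 2.74 on arrays 2 and 3, so that dim probe sets read higher there. IAA changes of the 8 genes are therefore also given without the 4 arrays numbered 1, or after quantile normalization, where either turns their sign or moves them by over 1.5 times. Of the seedling markers, the root transcript PYK10 and the leaf transcript RCA, rubisco activase, lay above the 99th percentile on every array, while EXPA18 lay between the 55.2th and 77.4th and EXPA7 between the 37.7th and 47.8th. The root and shoot markers measured, 3 of 8 and 1 of 7, had log2 changes between -0.34 and 0.08 under IAA at either time, with a lowest adjusted p of 0.78. In the root list the smallest p belonged to EXPA7 at 15 min (-0.24, SE 0.24) and to EXPA18 at 3 h (-0.34, SE 0.26), both root hair expansin genes, and RCA changed by 0.03 and -0.01 (SE 0.12).

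**Figure D1:**
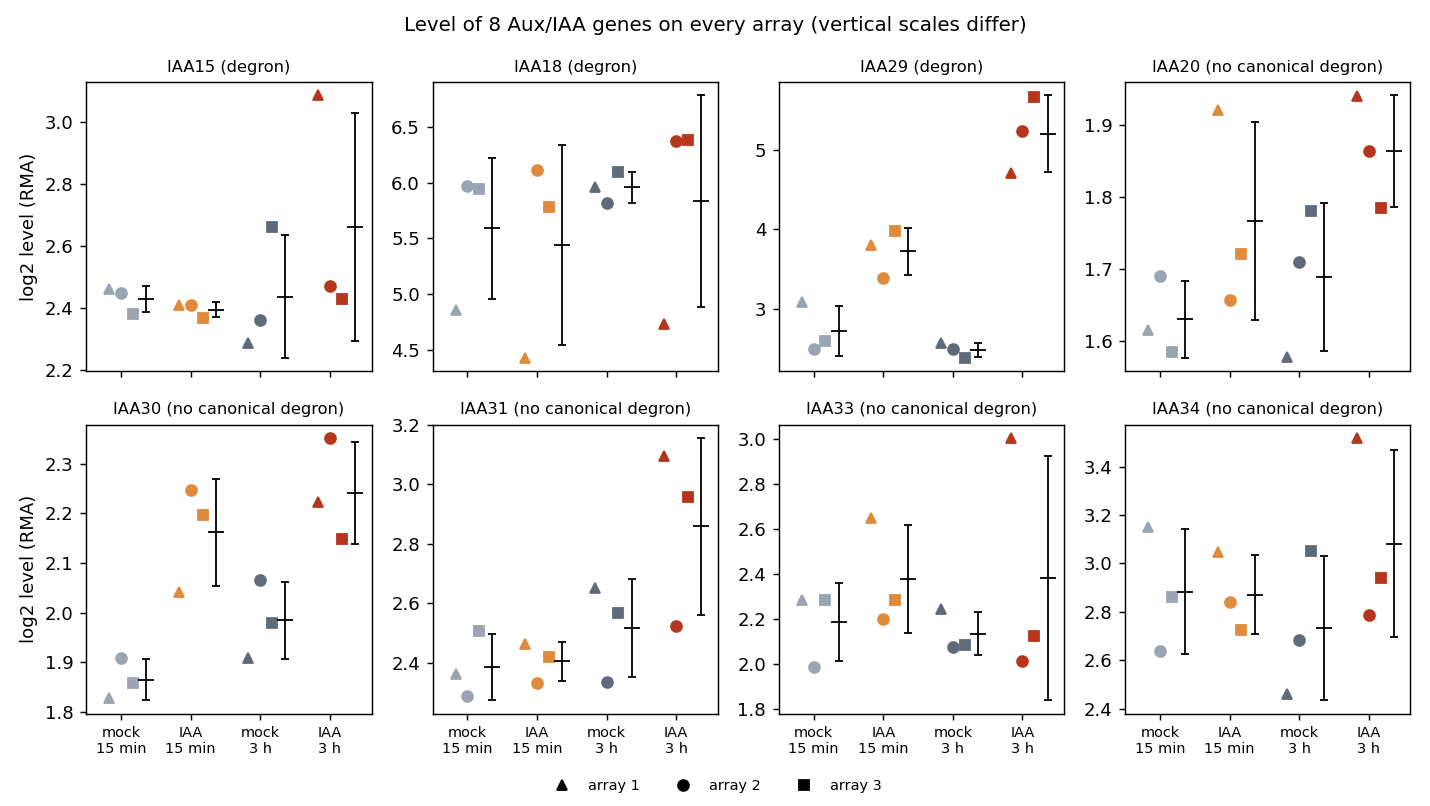
RMA log2 level (vertical axis, scales differ between panels) of 8 Aux/IAA genes on each of 12 arrays, by group (horizontal axis). Marker shape gives the array number, and the black dash with its bar is the mean ± SD of 3 arrays. IAA29 separates into steps from mock (2.38 to 3.08) through IAA 15 min (3.39 to 3.97) to IAA 3 h (4.71 to 5.67), while array 1, a triangle, is the extreme value in many other panels.

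Most of the 8 genes were dim. IAA15, IAA20, IAA30 and IAA33 lay below the 25th percentile of the array on all 12 arrays, IAA31 on 11, IAA29 on 5 and IAA34 on 3. IAA18 was the exception and stood between the 45.3th and the 71.7th percentile. RMA compresses values this close to background, so fold changes of the dim genes may be understated. This applies to IAA29 too, since the 5 arrays on which it lay below the 25th percentile were all mock arrays. The size of this effect was not tested.

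IAA29 was the 1 member whose change with auxin was called. It encodes a degron-bearing repressor whose gene is also known as a target of the PIF factors in shade and elongation growth. In mock seedlings its log2 level was 3.08, 2.49 and 2.60 on arrays 1, 2 and 3 at 15 min and 2.56, 2.50 and 2.38 at 3 h. With IAA it was 3.80, 3.39 and 3.97 at 15 min and 4.71, 5.24 and 5.67 at 3 h. Every IAA array lay above every mock array of either time, and every IAA 3 h array lay above every IAA 15 min array. Its rank on the array moved accordingly, from the 18.1th to 26.7th percentile in mock to the 34.0th to 40.8th at 15 min of IAA and the 49.9th to 61.6th at 3 h.

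At 3 h, IAA29 rose 6.62-fold over mock (log2 change 2.73, SE 0.25, 95% interval 2.18 to 3.27, n = 3 against 3; limma adjusted p 0.00081). It was 1 of 8 members called at an adjusted p under 0.05, where 0.171% of all genes tested were called higher and 0.0686% lower. The same-numbered arrays gave differences of 2.15, 2.75 and 3.29, smallest between the arrays numbered 1. Without those arrays the change was 3.02 (SE 0.20, adjusted p 0.000489), and over all 22 alternatives it ran from 2.50 to 3.02 with an adjusted p from 2.25e-07 to 0.0318. With the replicate number as a block IAA29 was again the 1 member called at 3 h, where 0.514% of all genes were, and 0 members were called at 15 min, between the times or between the mock groups (0.0229%, 0.0171% and 0% of genes).

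At 15 min the level of IAA29 was 3.72 ± 0.30 (SD, n = 3) with IAA and 2.72 ± 0.32 in mock, a log2 change of 1.00 (SE 0.25, 95% interval 0.46 to 1.54). Its same-numbered differences were 0.72, 0.90 and 1.38, all above 0. The change did not pass over all genes tested (limma p 0.00181, adjusted p 0.9999), and its adjusted p over 22 alternatives ran from 0.00513, with array weights, to 1. By limma 0 of 8 members and 0 genes (0%) were called at this time, while 2 members and 111 of the 17504 genes had an unadjusted p under 0.05. Those 2 members were IAA29 and IAA30. The share of all genes that reached it was below the 0.05 that would be reached on average with no change in any gene. A high adjusted p at 15 min is therefore no sign that a gene did not respond.

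The response of IAA29 was larger at 3 h than at 15 min by 1.73 on the log2 scale (SE 0.35, 95% interval 0.96 to 2.49). This difference between the times had an unadjusted p of 0.000391 and an adjusted p of 0.5, so it was not called. For this comparison 0 of 8 members were called, against 0.0114% of all genes, and 1 member and 333 genes reached an unadjusted p under 0.05. It was called with array weights (1.83, adjusted p 0.00171) and with the replicate number as a block when the 4 arrays numbered 1 were left out (1.88, adjusted p 0.0253).

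The order of the 4 levels of IAA29, from low to high, was mock at 3 h, mock at 15 min, then IAA at 15 min and IAA at 3 h. The mock groups overlapped, at 2.48 ± 0.09 and 2.72 ± 0.32, and their difference of -0.24 (SE 0.25, adjusted p 0.9992) did not pass. The other neighbours in this order did not overlap. Time in the tube alone thus gave no called change of this gene, nor of any of the 8 (0 of 8 members and 0% of genes by limma, with 0 members and 499 genes at an unadjusted p under 0.05). The share of genes that reached it was again below 0.05, so the lack of calls is no sign that levels stayed the same. Without the arrays numbered 1, 118 genes and 0 members were called between the mock groups.

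**Figure D2:**
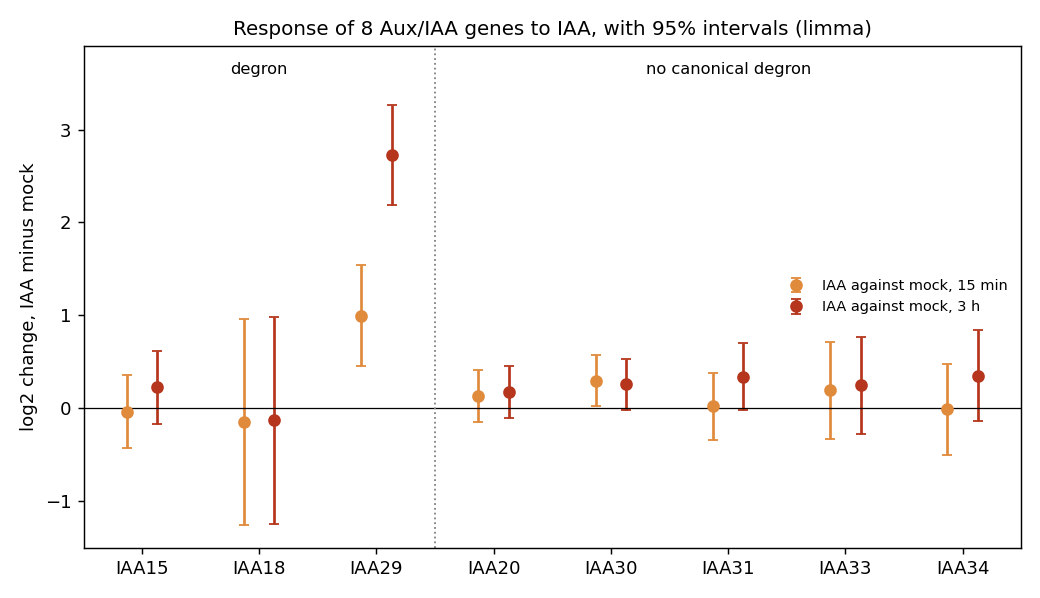
Log2 change, IAA minus mock, of each Aux/IAA gene (horizontal axis) at 15 min and at 3 h, with 95% intervals from limma, n = 3 against 3. At 3 h the interval of IAA29 (2.18 to 3.27) lies above the upper end of every interval of the other genes, of which the highest is 0.99.

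The other degron-bearing genes had no called change at either time. IAA18, known from a gain-of-function allele that blocks lateral root initiation, had the highest percentile of the 8 on every array. At 3 h its level was 5.96, 5.82 and 6.10 in mock and 4.73, 6.37 and 6.39 with IAA on arrays 1, 2 and 3. IAA thus lay above mock on arrays 2 and 3 and far below it on array 1. The log2 change was -0.13 (SE 0.51, adjusted p 0.932) with all arrays and 0.42 (SE 0.13, adjusted p 0.274) without the arrays numbered 1, a change of sign that rests on those arrays.

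IAA18 was low on 3 of the 4 arrays numbered 1. Those of IAA 3 h, IAA 15 min and mock 15 min lay between 4.42 and 4.85, and the other 9 arrays between 5.78 and 6.39. Quantile normalization left this gap in place, at 4.38 to 4.85 against 5.74 to 6.32. Its cause was not tested. At 15 min the same-numbered differences were -0.43, 0.15 and -0.16, with no common direction, and the change of -0.15 (SE 0.51) was -0.006 without the arrays numbered 1. The 95% interval of IAA18, -1.24 to 0.99 at 3 h, was the widest of the 8 and includes a halving as well as nearly a doubling.

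IAA15, a degron-bearing gene whose stabilised protein is known to reduce lateral root number, gave nearly constant values at 15 min. Its level was 2.46, 2.45 and 2.38 in mock and 2.41, 2.41 and 2.37 with IAA, a change of -0.04 (SE 0.18, 95% interval -0.43 to 0.36) that was -0.05 after quantile normalization. That SE also takes in the spread at 3 h, and it was 0.12 without IAA 3 h array 1. At 3 h the level of IAA15 was 2.29, 2.36 and 2.66 in mock and 3.09, 2.47 and 2.43 with IAA. The high value was IAA 3 h array 1, where dim probe sets read higher. The change of 0.22 (SE 0.18, adjusted p 0.78) became -0.06 without the arrays numbered 1 and 0.02 after quantile normalization.

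Among the non-canonical genes, IAA30 was the one whose IAA arrays lay above all mock arrays at both times. IAA30 and its close relative IAA20 are known as targets of the response factor MONOPTEROS in vascular tissue, and overproduction of either disturbs root growth and gravitropism. IAA30 read 1.83, 1.91 and 1.86 in mock and 2.04, 2.25 and 2.20 with IAA at 15 min. At 3 h it read 1.91, 2.07 and 1.98 in mock and 2.22, 2.35 and 2.15 with IAA. The steps were small and alike at the 2 times, with same-numbered differences of 0.21, 0.34 and 0.34 at 15 min and 0.31, 0.29 and 0.17 at 3 h.

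The change of IAA30 did not pass at either time. It was 0.30 at 15 min (SE 0.12, 95% interval 0.03 to 0.57, p 0.0342, adjusted p 0.9999) and 0.26 at 3 h (SE 0.12, 95% interval -0.01 to 0.53, adjusted p 0.78) by limma. Without the arrays numbered 1 it was 0.34 and 0.23, and after quantile normalization 0.29 and 0.11. Rank on the array tells the same for arrays 2 and 3, where IAA30 went from the 6.54th to 11.5th percentile in mock to the 12.7th to 17.9th with IAA. On the 3 h arrays numbered 1 the rank was lower with IAA (4.93) than in mock (7.17), although the level was higher.

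IAA20 had the lowest percentile of the 8 on every array, between the 0.63th and the 6.54th percentile. Its 3 h levels were 1.58, 1.71 and 1.78 in mock and 1.94, 1.86 and 1.79 with IAA. All 3 IAA values lay above the mock values, the closest by under 0.01. The change was 0.17 (SE 0.13, adjusted p 0.78), and 0.14 (SE 0.13, adjusted p 0.9999) at 15 min, when the groups overlapped. Without the arrays numbered 1 it was 0.08 at 3 h and 0.05 at 15 min, and after quantile normalization 0.06 and 0.13.

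In the deposited values 2 of 8 members had all IAA arrays above all mock arrays at 15 min, IAA29 and IAA30, beside 2.11% of all genes tested. At 3 h they were 3 of 8, IAA20, IAA29 and IAA30, beside 6.56%. None of the 8 had all IAA arrays below mock at either time (1.87% and 4.65% of genes). After quantile normalization IAA29 alone was left at each time, 1 of 8 members beside 2.61% and 5.94% of genes, with 0 members entirely below mock (2.86% and 5.64% of genes), so the separation of IAA20 and IAA30 depends on how the arrays were scaled.

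IAA31, whose degron is altered rather than absent and whose overproduction in seedlings resembles that of IAA20, had positive same-numbered differences at 3 h. Its level was 2.65, 2.34 and 2.57 in mock and 3.09, 2.52 and 2.96 with IAA, so the groups overlapped while each IAA array exceeded the mock array of its number by 0.19 to 0.44. Between the 3 h arrays numbered 1, however, the rank of IAA31 was lower with IAA (20.1th percentile) than in mock (23.5th). After quantile normalization its level on these arrays was lower with IAA too (2.56 against 2.74). The change was 0.34 (SE 0.16, 95% interval -0.02 to 0.70, adjusted p 0.78), 0.29 without the arrays numbered 1 and 0.14 after quantile normalization. At 15 min it was 0.02 (SE 0.16), with values of 2.36, 2.29 and 2.51 in mock and 2.46, 2.33 and 2.42 with IAA, and its sign turned without the arrays numbered 1 (-0.022) and after quantile normalization (-0.0024).

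IAA33 and IAA34 lack the degron altogether. IAA33 is known to act against degron-bearing Aux/IAA proteins in the root tip, and IAA34 is a repressor that the kinase TMK1 stabilises in the apical hook. IAA33 read 2.25, 2.08 and 2.09 in mock and 3.01, 2.02 and 2.12 with IAA at 3 h. IAA34 read 2.46, 2.68 and 3.05 in mock and 3.52, 2.79 and 2.94 with IAA. In each case IAA 3 h array 1 was the one value well above mock, and the changes of 0.25 (SE 0.24) and 0.35 (SE 0.22), adjusted p 0.781 and 0.78, became -0.01 and -0.005 without the arrays numbered 1 and 0.03 and 0.16 after quantile normalization. At 15 min the changes were 0.19 (SE 0.24) for IAA33, with same-numbered differences of 0.37, 0.21 and -0.004, and -0.01 (SE 0.22) for IAA34. Without the arrays numbered 1 they were 0.11 and 0.03, a turn of sign for IAA34, and after quantile normalization 0.17 and -0.03.

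**Figure D3:**
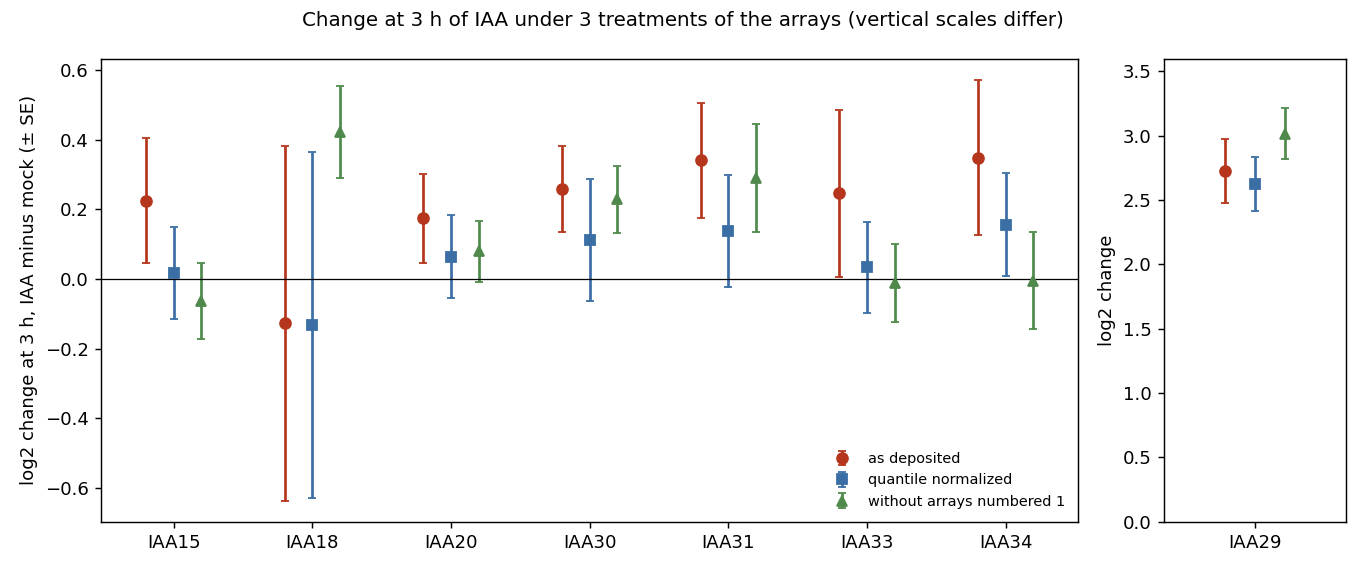
Log2 change at 3 h, IAA minus mock, ± SE from limma, of 7 Aux/IAA genes (left) and IAA29 (right, its own scale), with the values as deposited, after quantile normalization and without the 4 arrays numbered 1. IAA29 stays between 2.63 and 3.02, IAA18 changes sign, and IAA15, IAA33 and IAA34 move to -0.06, -0.01 and -0.005 without those arrays.

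Set side by side, 1 of 3 genes with a degron and 0 of 5 without were called at 3 h, beside 0.24% of all genes tested, so that the count by class rests on IAA29 alone. The 5 non-canonical genes were all dim, between the 0.63th and the 30.0th percentile on every array. IAA15, with a degron, was dim as well. Class and signal level thus cannot be fully told apart. The changes ran from -0.13 to 2.73 in the former and from 0.17 to 0.35 in the latter, with medians of 0.22 and 0.26, beside 0.06 over all genes tested. Leaving out the arrays numbered 1 turned the order of the medians, to 0.42 with a degron and 0.08 without, beside 0.0001 for all genes, and the count of positive changes among the 5 non-canonical genes went from 5 to 3. At 15 min the medians were -0.04 with a degron and 0.14 without, beside 0.0003 for all genes, and 1 of 3 and 4 of 5 changes were positive. The spread within the degron-bearing genes, from IAA18 to IAA29, exceeded the distance between the medians of the classes, and IAA15 and IAA18, which carry a degron as IAA29 does, were not called.

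Over the 8 genes together, 5 changes were positive at 15 min and 7 at 3 h, beside 50.1% and 59.4% of all genes tested. The median change was 0.08 and 0.25. Without the arrays numbered 1 it was 0.04 and 0.15, with 5 of 8 positive at each time beside 51.6% and 50% of all genes. For the 7 genes other than IAA29 the median at 3 h went from 0.25 to 0.08 when those arrays were left out. The lowest adjusted p among the 7 was 0.78 at 3 h, and their 95% intervals ended at 0.99 or below, under the lower end for IAA29.

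The receptors and partners of these repressors could not be followed. Of the 6 TIR1/AFB receptors, 9 genes of the ubiquitin ligase and its regulators, 22 auxin response factors and 5 TOPLESS co-repressors listed, 0 were matched to a probe set with a single gene name, and none was analysed here.

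Among single-gene probe sets, the profile of IAA29 over the 12 arrays was most like those of GH3.1, AT3G60650, AT1G65920, AT1G30190 and CLE44, with Pearson correlations of 0.964, 0.961, 0.945, 0.933 and 0.928. These are descriptions over arrays that share 4 groups and carry no test. GH3.1 encodes an enzyme that couples free auxin to amino acids, and CLE44 a secreted signalling peptide of the vasculature. GH3.1 read 4.82, 4.92 and 5.20 in mock and 6.27, 6.82 and 6.87 with IAA at 15 min, and 4.86, 4.87 and 5.17 in mock and 8.16, 8.51 and 8.77 with IAA at 3 h. As for IAA29, mock and IAA did not overlap at either time. GH3.1 was again the closest over the 8 arrays numbered 2 and 3 (0.984) and with the mean of each replicate number taken out (0.971), while the other 4 ranked between 7 and 37 over those 8 arrays.

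**Figure D4:**
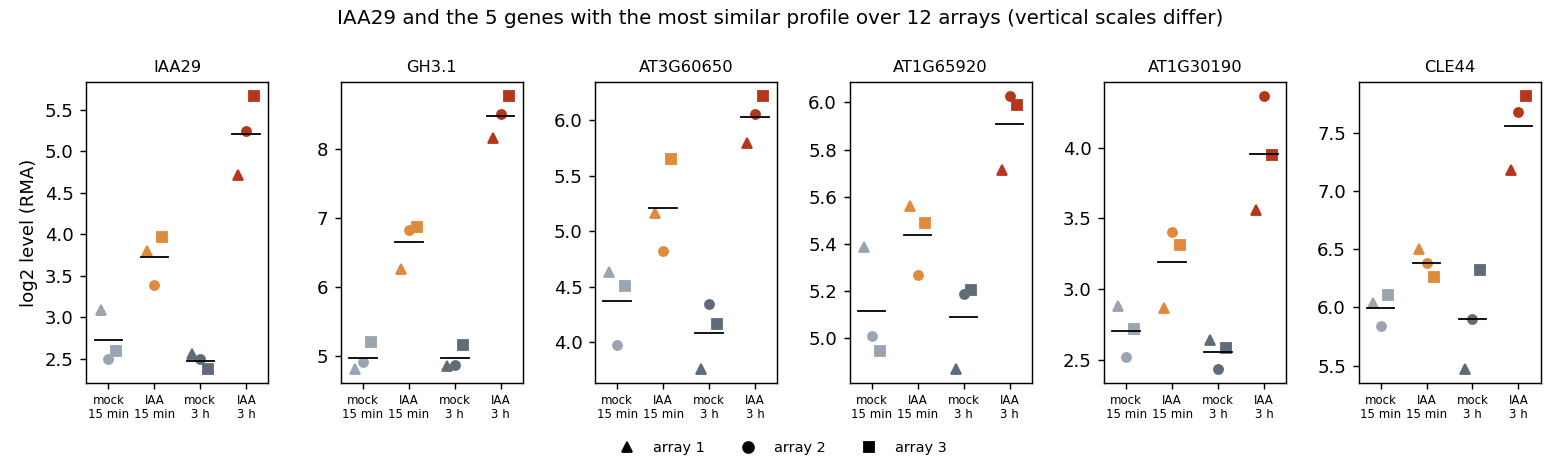
RMA log2 level (vertical axis, scales differ) of IAA29 and the 5 genes with the most similar profile, on each array by group, with marker shape for the array number and a black line at the mean of 3 arrays. In all 6 panels the IAA 3 h arrays are the highest and the IAA 15 min mean lies between mock and IAA 3 h.

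Compared within each gene, the step from mock at 15 min was 1.00 for IAA29, 1.67 (SE 0.21) for GH3.1, 0.84 (SE 0.25) for AT3G60650, 0.32 (SE 0.17) for AT1G65920, 0.49 (SE 0.21) for AT1G30190 and 0.39 (SE 0.22) for CLE44. At 3 h the changes were 2.73, 3.51, 1.94, 0.82, 1.40 and 1.66 in the same order. The 5 genes were chosen for their likeness to IAA29 on these arrays, so their changes are a description and no test of them is given.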

How the data were processed

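Per the submitters' processing notes, the authors' log2 expression values, 1 array per sample, were made with RMA in the oligo package. They were used as deposited. Which genome build or annotation was used is not given in the sources used here, and no coordinates are printed. The platform annotation paired 16746 of the 28583 probe sets with 1 gene and 758 with several, while 11079 had none. Groups came from sample titles.

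Tests used limma 3.58.1 (R 4.3.3) on the log2 values of the 17504 rows with a gene name, the 4 groups in a single fit with no block and no filter (8 residual degrees of freedom). The threshold was a Benjamini-Hochberg adjusted p under 0.05 over all rows. Intervals are 95% and unadjusted. The fit was tested on simulated data. Annotation and figures were made in Python 3.11.15 (pandas 2.3.3, matplotlib 3.10.9). Members, lists, alternatives and the rule for named genes (the 8 members, called members of the lists or the smallest p where there was none, and the 5 profiles most like that of a called member) were chosen with earlier results of these data known.

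Replicate numbers came from the titles. Over the tested rows, deviations of same-numbered arrays from their group means correlated at 0.781, 0.65 and 0.639 at 15 min (IAA with mock) and at 0.127, 0.117 and 0.172 at 3 h. All exceed 0.1, the cut-off for reading the numbers as pairs, though only slightly at 3 h. For the mock groups of the 2 times the values were 0.0628, 0.0815 and 0.206. The deviations within a group cancel out, so arrays numbered 1 that deviate alike in 2 groups can raise the correlations of all 3 numbers. Whether the numbers pair the samples therefore cannot be told from these correlations. The p-values measure the spread between 3 repeats of 1 experiment, and 3 arrays a group limit the precision. The 4 groups share 1 estimate of that spread per gene, so a p-value or SE at 1 time also carries the spread at the other.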

Additional observations from a re-analysis of the deposited data

How the results depend on the processing

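The call of IAA29 at 3 h held in all 22 alternatives that kept its probe set. Requiring a mean level above the median of all probe sets leaves IAA18 as the 1 member tested, so 0 members were called there. With the replicate number as a block, 0, 1, 0 and 0 members were called at 15 min, at 3 h, for the difference between times and between the mock groups, as without it. The block changed no call among the members. At 3 h, 1 member and 851 genes had an unadjusted limma p under 0.05 without the block. With the block they were 3 members and 1898 genes, the members being IAA29, IAA30 (p 0.0366) and IAA31 (p 0.0223). Array weights called 1 member, IAA29, at 15 min and 1 for the difference between times, as did the block without the arrays numbered 1 for the latter (1 member). Leaving out single arrays gave 0 members at 15 min, 1 at 3 h, 0 for the difference and 0 in mock.

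Calls over all genes moved by over 1.5 times in many of the alternatives, though not in all. At 15 min 0 became 4 with the block, 11 without the arrays numbered 1, 4 after quantile normalization, 3 above the median level, 12 over all rows, 42 with array weights and 0 to 5 without single arrays. At 3 h 42 became 90, 163, 42, 26, 93, 546 and 8 to 61 in the same order, and 6 with 2 groups in the fit. For the difference 2 became 3, 21, 5, 2, 5, 127 and 1 to 8. In mock 0 became 118 without the arrays numbered 1 and 458 with array weights. The block with quantile normalization gave 5, 80, 4 and 0, and the block without the arrays numbered 1 gave 15, 298, 62 and 158.

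Changes of sign were seen in members that were not called. Without the arrays numbered 1, with or without the block, log2 changes at 3 h became -0.062 for IAA15, 0.42 for IAA18, -0.011 for IAA33 and -0.0046 for IAA34, those at 15 min -0.022 for IAA31 and 0.034 for IAA34, differences between times -0.035 for IAA15, -0.12 for IAA33 and -0.038 for IAA34, and the mock change of IAA34 0.12. Quantile normalization, with or without the block, gave -0.0024 for IAA31 at 15 min, -0.063 for IAA20 and -0.14 for IAA33 for the difference (from 0.038 and 0.054), and 0.024 for IAA33 in mock. Array weights gave 0.46 for IAA18 at 3 h, 0.069 for IAA34 at 15 min, -0.18 for IAA33 for the difference, and -0.019, 0.014 and 0.042 for IAA18, IAA33 and IAA34 in mock. Leaving out single arrays spanned 0 for IAA15 in mock (-0.11 to 0.081), IAA18 at 15 min (-0.51 to 0.36), at 3 h (-0.40 to 0.42) and for the difference (-0.49 to 0.57), IAA20 (-0.018 to 0.12) and IAA30 (-0.10 to 0.0065) for the difference, IAA31 at 15 min (-0.029 to 0.080), IAA33 at 3 h (-0.066 to 0.43), for the difference (-0.26 to 0.24) and in mock (-0.15 to 0.0011), and IAA34 at 15 min (-0.13 to 0.12). Changing only which rows were tested left each log2 change as it was. The cause of these changes of sign, and of the moves in the calls, was not tested.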
